A study of Homo sapiens with 4 samples.

Results

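Chromosome 4 replication was described from the 1991 bins of 80 kb that the deposited state table places on chromosome 4, out of 27704 bins in all. Every bin with that chromosome name was taken, whatever its values. In each cell a bin was coded as replicated (code 2), unreplicated (code 1) or without a call (code 0). DKO1 contributed 207 S-phase cells and HCT116 contributed 322. DKO1 is 1 derivative line of HCT116 that lacks the DNA methyltransferase genes DNMT1 and DNMT3B, and HCT116 is an established human colorectal cancer line that keeps both. Both lines were grown in the same medium, stained for DNA content, sorted into early, mid and late S phase, and loaded as an equal pool of these fractions on a droplet copy-number system. The question was whether chromosome 4 replicates in the same order in the line with these 2 genes targeted.

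Chromosomes replicate in domains of up to several megabases, which are copied at characteristic times in S phase. Early domains tend to be gene-rich and open, and late domains tend to be gene-poor, methylated in a patchy way in cancer cells and attached to the nuclear periphery. DNMT1 copies methylation onto newly made strands behind the fork, and DNMT3B adds methyl groups to unmethylated sites. Chromosome 4 is one of the gene-poorest human autosomes. The tip of its short arm, 4p, holds a gene-dense stretch that is deleted in Wolf-Hirschhorn syndrome, and the tip of its long arm, 4q, holds the D4Z4 macrosatellite, whose loss of methylation is linked to facioscapulohumeral muscular dystrophy.

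S-phase progress of a cell was the percent of its called bins coded 2. Its median was 48.8% in DKO1 (quartiles 39.97 and 59.6%) and 52.7% in HCT116 (quartiles 39.5 and 63.1%). Shares were therefore standardised: in each of 6 strata of progress from 20 to 80%, the percent of cells with the bin replicated was taken, and the strata were weighted equally. The thinnest strata held 10 and 11 DKO1 cells, against 19 and 33 HCT116 cells. Bins with a call in 90% or more of each line's cells were used, which left 1714 chromosome 4 bins, 577 on 4p and 1137 on 4q. All 277 bins left out lay on 4q beyond 162000000, where only 61 of 338 bins remained. With 1 library a line, the lines could not be tested against each other, and no p-value is given. Intervals are exact (Clopper-Pearson, 95%) and cover the counting error of cells alone. The read depth behind a call is unknown.

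Chromosome 4 was a late chromosome in both lines. Its mean standardised share was 38.3% in DKO1 and 39.7% in HCT116, against 50.6% in DKO1 and 50.5% in HCT116 over the other autosomes. Among 21 chromosomes with at least 100 bins it ranked 2 from the lowest in DKO1 and 4 from the lowest in HCT116. It carries 4.05 protein-coding genes per Mb in the GRCh38.p14 gene table, which ranked 3 from the lowest. In the timing classes of all autosomes, ranked by the mean of both lines, the early class took 18.3% of its bins, the middle class 39.4% and the late class 42.3%.

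The near equality of the chromosome means covered opposite differences on the arms. On 4p the mean share was 44.7% in DKO1 and 39.8% in HCT116, a difference of 4.92 points. On 4q it was 35.1% in DKO1 and 39.6% in HCT116, a difference of -4.53 points. Over these bins the arms were alike in HCT116, and 4p was ahead of 4q in DKO1. The likeness in HCT116 rests on the call limit, which leaves out distal 4q bins alone: at a limit of 80%, 4q had 31.5% in DKO1 and 35.4% in HCT116 and 4p was unchanged, so 4p was ahead in both lines. With only the 109 bins of 4p called in at least 99% of cells, which were early bins with 83.4% in DKO1 and 85.1% in HCT116, the 4p difference had the opposite sign, at -1.63 points, and over the 66 such bins of 4q, with 55.9% in DKO1 and 65.3% in HCT116, the difference was -9.38 points. Without matching for progress the 4p difference was 2.94 points. Over the other autosomes the difference was 0.049 points. Chromosome 3 had 45.4% in DKO1 and 44.7% in HCT116, and chromosome 5 had 42.3% in DKO1 and 44.1% in HCT116, both as whole chromosomes.

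The arm difference had the same direction in all 6 strata of progress. On 4p the mean over cells rose with progress as 20.4, 30.8, 36.9, 49.8, 59.9 and 71.7% in DKO1, and as 17.3, 27.6, 35.4, 45.2, 54.8 and 60.2% in HCT116. On 4q it was 12.2, 20.7, 27.5, 39.4, 54.7 and 54.5% in DKO1, and 13.9, 22.3, 32.8, 43.9, 57.2 and 68.3% in HCT116. Cells within a stratum overlapped widely: at 50 to 60% progress, 4q stood at 39.4 ± 9.58% in DKO1 (SD over 50 cells) and 43.9 ± 5.84% in HCT116 (SD over 77 cells). The last 4q value of DKO1 rests on 10 cells with an SD of 20.4 points.

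The same used bins were compared within single cells. Among mid-S cells, those at 40 to 60% progress, the 4p share exceeded the 4q share by 9.64 ± 10.1 points in DKO1 (SD over 100 cells) and by 1.82 ± 5.11 points in HCT116 (SD over 134 cells). The 4p share was the higher one in 91 of 100 DKO1 cells (91.0%, interval 83.6 to 95.8%), against 87 of 134 HCT116 cells (64.9%, interval 56.2 to 73.0%).

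**Figure D1:**
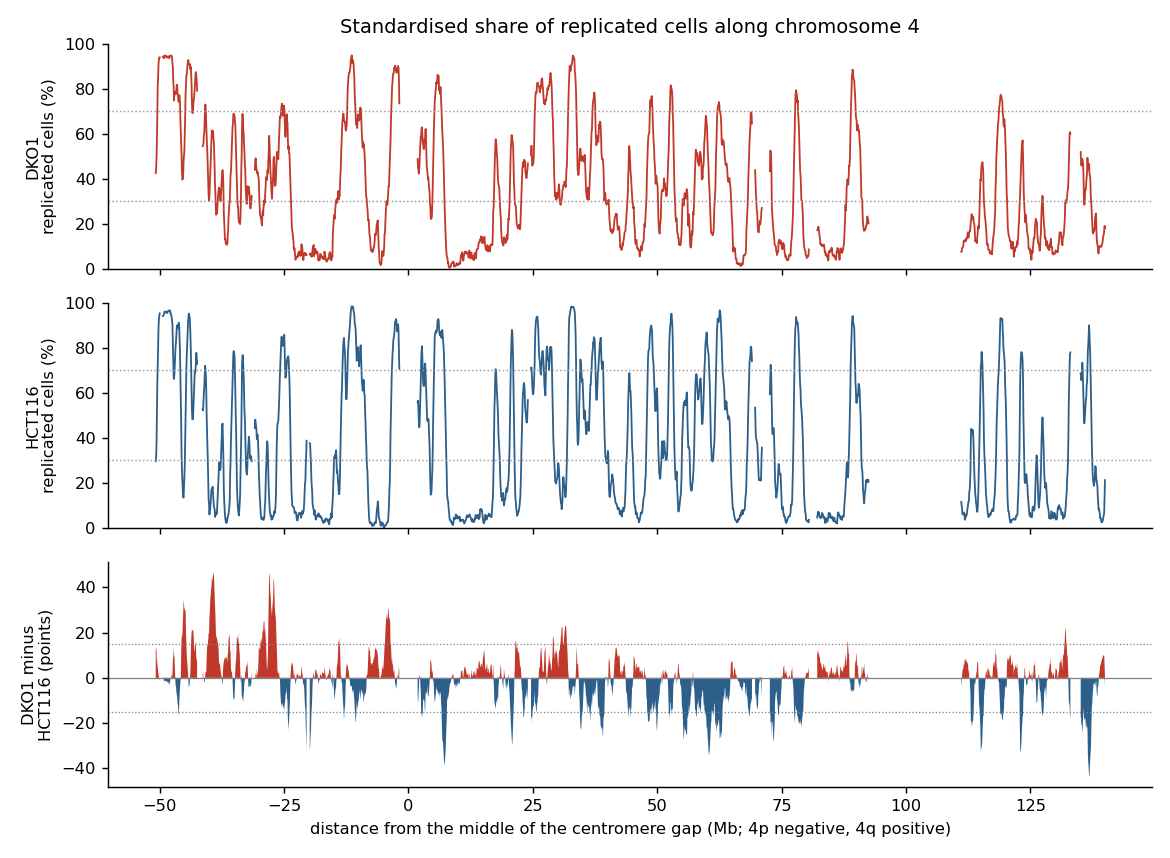
Standardised percent of replicated cells in DKO1 (top) and HCT116 (middle), and DKO1 minus HCT116 in points (bottom), for each chromosome 4 bin with a call in 80% or more of each line's cells, against distance in Mb from the middle of the centromere gap. Dotted lines mark 70 and 30% in the upper panels and 15 points in either direction in the lower one. The tall positive peaks lie on 4p, the negative ones are spread over 4q, and the widest blank on 4q is the 18.56 Mb stretch with no bin in the table used here.

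At the level of bins, 4p and 4q leaned opposite ways. A difference of at least 15 points was counted as large. On the whole chromosome 135 bins (7.88%) were higher in DKO1 by this measure, beside 6.9% of all bins in the table, and 227 bins (13.2%) were lower, beside 7.39% of all bins. On 4p 110 of 577 bins (19.1%) were higher and 20 (3.47%) were lower. On 4q 25 of 1137 bins (2.20%) were higher and 207 (18.2%) were lower. The 4p share of higher bins and the 4q share of lower bins were thus each above the whole-table figure, while the chromosome's own share of higher bins was close to it. By chromosome, the share of lower bins on chromosome 4 ranked 2 of 21.

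Timing classes separated the arms again. In early-class bins 4p had 82.9% in DKO1 and 85.4% in HCT116, and 4q had 77.0% in DKO1 and 86.1% in HCT116. In middle-class bins 4p had 50.2% in DKO1 and 43.4% in HCT116, a difference of 6.72 points, whereas 4q had 44.2% in DKO1 and 53.4% in HCT116, a difference of -9.13 points. In late-class bins 4p had 15.96% in DKO1 and 7.92% in HCT116, and 4q had 11.99% in DKO1 and 10.5% in HCT116. Over the other autosomes the differences were -3.10, -1.81 and 5.22 points in the early, middle and late classes. Late bins of 4p thus stood further above HCT116, and early and middle bins of 4q further below it, than bins of the same class elsewhere.

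Fewer bins of chromosome 4 reached the extremes in DKO1, and the same held over the other autosomes. Bins with a share of at least 70% made up 15.6% in DKO1 and 23.6% in HCT116, and bins with at most 30% made up 43.5% in DKO1 and 46.5% in HCT116. On 4p the loss was mainly at the late end, with 35.5% of bins at or below 30% in DKO1 and 48.2% in HCT116. On 4q it was at the early end, with 12.05% of bins at or above 70% in DKO1 and 21.5% in HCT116. The SD of the share over the chromosome's bins was 26.8 points in DKO1 and 31.1 points in HCT116. Over the other autosomes, bins at or above 70% made up 33.6% in DKO1 and 37.4% in HCT116. Bins there at or below 30% made up 33.8% in DKO1 and 36.2% in HCT116, and the SD was 31.5 points in DKO1 and 34.8 points in HCT116.

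Early domains were defined as runs of at least 5 bins with a share of at least 70%, and late domains as runs with at most 30%. DKO1 had 16 early domains covering 20.48 Mb, and HCT116 had 30 covering 30.72 Mb. By arm these were 6 on 4p and 10 on 4q in DKO1, against 11 on 4p and 19 on 4q in HCT116. The 2 sets shared 231 bins, which were 90.2% of the early-domain bins of DKO1 and 60.2% of those of HCT116. All 16 DKO1 early domains overlapped one of HCT116, while 19 of the 30 HCT116 domains overlapped one of DKO1. Of the 30 HCT116 early domains 24 had a lower share in DKO1, with a median difference of -11.6 points and a range of -30.1 to 10.6. Because these domains were picked for a high HCT116 value, a lower second value is built into that count to an unknown degree, and it is given as a description.

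The longest early domain of HCT116, chr4:38640001-41520000 on 4p, had 78.6% in DKO1 and 85.4% in HCT116. The DKO1 early domain at that place was 1.60 Mb long, chr4:38640001-40240000. The domain chr4:1520001-3680000 near the 4p tip was the most stable of the 5 longest, with 93.7% in DKO1 and 94.1% in HCT116. At 20 to 30% progress it was already replicated in 90.6% of DKO1 cells and 86.3% of HCT116 cells. On 4q the domain chr4:56080001-58160000 had 72.2% in DKO1 and 86.0% in HCT116, and its bins ran down to 33.6% in DKO1 while the lowest in HCT116 was 72.0%. The domain chr4:83040001-84640000 had 88.5% in DKO1 and 93.5% in HCT116. The domain chr4:47600001-49120000, which ends at the centromere gap, had 86.9% in DKO1 and 85.6% in HCT116. These 5 comprise 3 domains within 5 points of each other between the lines and 2 that were lower in DKO1, by 6.80 and 13.7 points.

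DKO1 joined some neighbouring early domains. Its longest, chr4:1520001-5040000 and chr4:76320001-79840000, were 3.52 Mb each. The first spans 2 HCT116 early domains, and the second spans 3. Over the second, the mean share was 79.7% in DKO1 and 77.2% in HCT116, with lowest bins at 72.0% in DKO1 and 58.9% in HCT116. The dips between the HCT116 domains were thus shallower in DKO1.

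Late domains were better shared between the lines. DKO1 had 24 covering 57.52 Mb and HCT116 had 27 covering 62.72 Mb, with 655 bins in common, which were 91.1% of DKO1's late-domain bins and 83.5% of HCT116's. On 4q both lines had 17 late domains. On 4p DKO1 had 7 covering 15.52 Mb and HCT116 had 10 covering 21.76 Mb. The same 8.24 Mb domain, chr4:59840001-68080000 on proximal 4q, was the longest in both lines, with 7.54% in DKO1 and 4.98% in HCT116. At 70 to 80% progress it was replicated in 22.9% of DKO1 cells and 17.1% of HCT116 cells.

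The other long late domains showed no common direction within an arm. On 4p, chr4:42560001-47280000 had 16.8% in DKO1 and 5.17% in HCT116, while chr4:31280001-35920000 had 6.33% in DKO1 and 6.62% in HCT116. On 4q, chr4:133040001-139360000 had 11.6% in DKO1 and 6.77% in HCT116, and chr4:124560001-128240000 had 9.20% in DKO1 and 12.1% in HCT116. One long late domain of 4p was therefore well above its HCT116 level and the other was not.

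The chromosome's edges were as follows. The first 5 bins of 4p averaged 52.1% in DKO1 and 42.6% in HCT116. The last 5 before the centromere gap averaged 85.6% in DKO1 and 83.8% in HCT116, and the first 5 on the 4q side averaged 44.9% in DKO1 and 51.4% in HCT116. The centromere was thus flanked by an early 4p side and an intermediate 4q side in both lines. At the near edge of the long blank, the DKO1 late domain chr4:142160001-143440000 had 19.6% in DKO1 and 18.3% in HCT116.

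A region was a run of 5 bins or more, across gaps of no more than 1 bin, whose bins all differed by 15 points or more in one direction. Chromosome 4 held 9 regions higher in DKO1, with 117 bins (6.83% of its used bins, beside 5.38% of all bins in the table), and 16 regions lower in DKO1, with 164 bins (9.57%, beside 5.67%). Of the 9 higher regions 7 lay on 4p, where they took 17.5% of the used bins. Of the 16 lower regions 15 lay on 4q, where they took 13.98%. The regions are numbered below by summed difference in each direction, and since differences chose them, their values are descriptions.

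**Figure D2:**
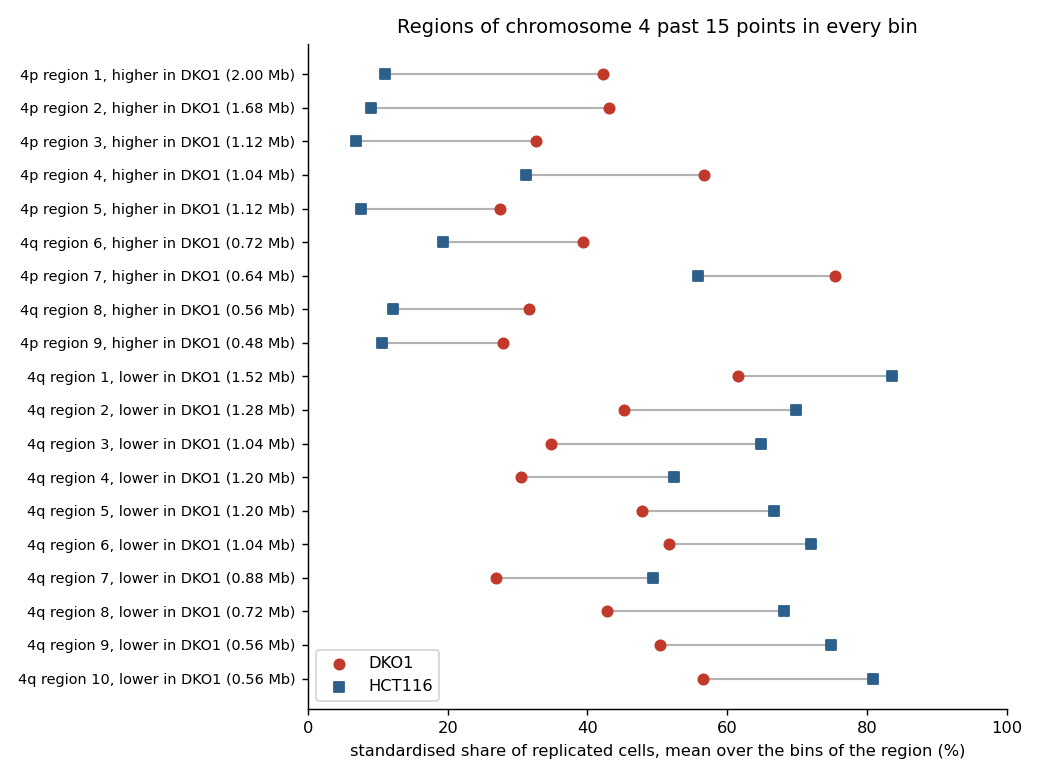
Mean standardised percent of replicated cells in DKO1 (circles) and HCT116 (squares) over the bins of the 9 higher regions and the first 10 lower regions, with arm and length in Mb. Of the higher regions 7 sit at 27.5 to 43.1% in DKO1 and at or below 20% in HCT116, and the lower regions sit between 26.9 and 61.5% in DKO1 and between 49.4 and 83.5% in HCT116.

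Higher region 1, chr4:10640001-12640000 on 4p, had the largest summed difference and is 2 Mb long. Its mean share was 42.2% in DKO1 and 11.1% in HCT116. By rising stratum of progress it was replicated in 19.3, 27.5, 29.9, 45.9, 57.3 and 73.2% of DKO1 cells, against 0, 7.32, 4.47, 9.16, 23.3 and 22.3% of HCT116 cells. HCT116 thus left most of it unreplicated even at 70 to 80% progress. Its DKO1 maximum was the bin starting at 11360001, with 61.5% in DKO1 and 17.3% in HCT116. HCT116 had a low local rise at the same place, within a late stretch, and the DKO1 peak was much higher. At least 50% of the region's called bins were replicated in 81 of 203 DKO1 cells (39.9%, interval 33.1 to 47.0%), against 23 of 312 HCT116 cells (7.37%, interval 4.73 to 10.9%). Unlike the shares, these counts take cells of any progress and are not matched for it. Without matching, the mean share of the region was 40.2% in DKO1 and 11.5% in HCT116.

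Higher region 2, chr4:22720001-24400000 on 4p, had a mean share of 43.1% in DKO1 and 9.04% in HCT116. By stratum it was replicated in 5.24, 16.1, 27.4, 59.4, 75.3 and 75.2% of DKO1 cells, against 1.19, 6.79, 5.25, 11.1, 14.8 and 15.2% of HCT116 cells. Unlike region 1 it was close to unreplicated in the earliest DKO1 stratum and rose steeply after 50% progress. At least 50% of it was replicated in 86 of 203 DKO1 cells (42.4%, interval 35.5 to 49.5%), against 15 of 314 HCT116 cells (4.78%, interval 2.70 to 7.76%). These counts are likewise not matched for progress. Without matching, its mean share was 43.6% in DKO1 and 9.50% in HCT116.

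These regions were only partly replicated in most mid-S cells of DKO1. Region 1 was wholly replicated in 7, wholly unreplicated in 27 and mixed in 69 of 103 mid-S DKO1 cells, against 0, 99 and 35 of 134 mid-S HCT116 cells. Region 2 was wholly replicated in 14, wholly unreplicated in 19 and mixed in 69 of 102 DKO1 cells, against 0, 84 and 50 of 134 HCT116 cells. The 0 of 134 allows a share of up to 2.72% by the exact interval. Regions 1 and 2 were both at least 50% replicated in 19 of 101 mid-S DKO1 cells, where independent replication would give 15.4.

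Higher region 3, chr4:46160001-47280000, is the part of the long 4p late domain next to the pericentromeric early domain. It had 32.6% in DKO1 and 6.94% in HCT116. By stratum it was replicated in 1.30, 10.6, 10.6, 29.1, 58.8 and 85.0% of DKO1 cells, against 0, 2.43, 1.07, 5.05, 14.3 and 18.8% of HCT116 cells. Most of the gap between the lines opened late, from 50% progress on. Its share rose toward the early neighbour in both lines, to 53.2% in DKO1 and 28.2% in HCT116 in the bin starting at 47200001.

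Higher regions 4 and 7 lie between early domains near the 4p tip, and the lines were further apart there before 50% progress than after 60%. Region 4, chr4:5280001-6320000, had 56.7% in DKO1 and 31.2% in HCT116. By stratum it was replicated in 37.6, 43.4, 53.8, 60.9, 66.9 and 77.7% of DKO1 cells, against 2.73, 11.3, 16.03, 34.1, 52.2 and 70.9% of HCT116 cells. Its flanks were early in both lines, at 73.2 and 90.1% in DKO1 and at 80.4 and 86.7% in HCT116. The region was thus a trough between early domains, and the trough was shallower in DKO1. Region 7, chr4:7200001-7840000, had 75.3% in DKO1 and 55.9% in HCT116, and was wholly replicated in 70 of 104 mid-S DKO1 cells (67.3%, interval 57.4 to 76.2%), against 56 of 136 HCT116 cells (41.2%, interval 32.8 to 49.9%).

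The remaining higher regions were late in HCT116. Region 5, chr4:21200001-22320000, had 27.5% in DKO1 and 7.55% in HCT116. Region 9, chr4:16400001-16880000, had 27.8% in DKO1 and 10.6% in HCT116. Its difference of 17.3 points was 5.05 points when cells with over 1% code 0 were left out, with 10.1% in DKO1 and 5.04% in HCT116. The 2 higher regions of 4q adjoin each other just before the early domain that starts at 83040001. Region 6, chr4:82080001-82800000, had 39.3% in DKO1 and 19.3% in HCT116, and region 8, chr4:81440001-82000000, had 31.6% in DKO1 and 12.2% in HCT116. At 60 to 70% progress region 6 stood at 77.5% in DKO1 and 30.6% in HCT116, and region 8 at 54.1% in DKO1 and 20.6% in HCT116.

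**Figure D3:**
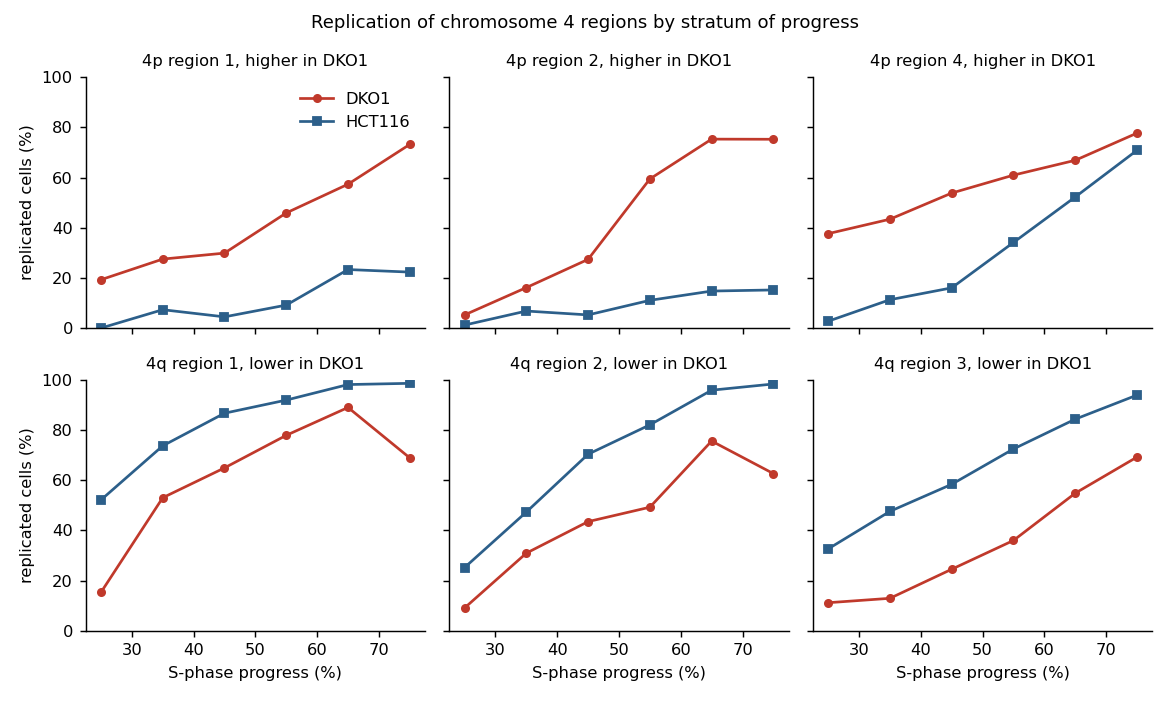
Percent of cells with the region replicated (mean over its bins) against S-phase progress in 10-point strata, drawn at the stratum middles, for higher regions 1, 2 and 4 and lower regions 1, 2 and 3, in DKO1 (circles) and HCT116 (squares). The lines are apart in every stratum, and the DKO1 points of the last stratum rest on 10 cells.

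The regions lower in DKO1 were mostly peaks of early or middle replication on 4q. Lower region 1, chr4:112480001-114000000, had 61.5% in DKO1 and 83.5% in HCT116. By stratum it was replicated in 15.3, 53.0, 64.9, 77.9, 89.0 and 68.9% of DKO1 cells, against 52.1, 73.7, 86.7, 91.9, 98.1 and 98.6% of HCT116 cells. Lower region 2, chr4:110560001-111840000, had 45.2% in DKO1 and 69.9% in HCT116, with 9.09, 30.9, 43.5, 49.2, 75.6 and 62.6% of DKO1 cells by stratum, against 25.2, 47.3, 70.4, 82.1, 95.9 and 98.4% of HCT116 cells. HCT116 had thus nearly completed both by 60 to 70% progress and DKO1 had not.

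The joint replication of these neighbours was counted. Mid-S cells with calls in both lower regions 1 and 2 were taken. Both regions were at least 50% replicated in 47 of 101 DKO1 cells and 126 of 136 HCT116 cells. Independent replication would give 42.4 in DKO1 and 122.3 in HCT116. At levels this high, above all in HCT116, the joint count has little room to depart from that figure. The correlation of the 2 regions over these cells (phi) was 0.243 in DKO1 and 0.618 in HCT116. Region 1 alone was at least 50% replicated in 37 of the DKO1 cells and 6 of the HCT116 cells. Region 2 alone was in 4 DKO1 and 0 HCT116 cells, and neither was in 13 DKO1 and 4 HCT116 cells. The stretch chr4:111520001-112480000, which covers the end of region 2 and runs up to region 1, was a late domain in DKO1 only, with 19.4% in DKO1 and 36.5% in HCT116.

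Lower region 3, chr4:57600001-58640000, had the largest mean difference of the 16 lower regions. Its share was 34.8% in DKO1 and 64.9% in HCT116. By stratum it was replicated in 11.2, 12.9, 24.5, 36.0, 54.8 and 69.2% of DKO1 cells, against 32.6, 47.6, 58.4, 72.5, 84.3 and 93.9% of HCT116 cells. It forms the distal edge of the early domain chr4:56080001-58160000, with the flank toward the centromere at 81.0% in DKO1 and 88.7% in HCT116 and the distal flank at 1.91% in DKO1 and 7.20% in HCT116. The early domain was thus shorter on that side in DKO1. At least 50% of the region was replicated in 57 of 205 DKO1 cells (27.8%, interval 21.8 to 34.5%), against 225 of 320 HCT116 cells (70.3%, interval 65.0 to 75.3%). These counts are not matched for progress. Without matching, the mean share of the region was 32.1% in DKO1 and 65.9% in HCT116.

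The other named lower regions were spread over the length of 4q. Region 4, chr4:106000001-107200000, had 30.4% in DKO1 and 52.4% in HCT116, and was a low peak with late flanks in both lines. Region 10, chr4:71440001-72000000, was an isolated early peak, with 56.5% in DKO1 and 80.8% in HCT116. At 30 to 40% progress it was replicated in 26.8% of DKO1 cells and 76.8% of HCT116 cells. Region 5, chr4:129040001-130240000, had 47.8% in DKO1 and 66.6% in HCT116, and region 6, chr4:89280001-90320000, had 51.7% in DKO1 and 71.9% in HCT116. Region 7, chr4:123680001-124560000, had 26.9% in DKO1 and 49.4% in HCT116. Its difference of -22.5 points was -13.9 points among cells with at most 1% code 0, with 34.9% in DKO1 and 48.8% in HCT116. With strata from 30 to 70% alone the difference was -15.8 points. At 70 to 80% progress the region stood at 30% in DKO1 (10 cells) and 97.1% in HCT116 (19 cells). Of 13 lower regions with bins on both sides, 9 stood above both flanks in HCT116 and 5 did so in DKO1.

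The single lower region of 4p, chr4:31040001-31440000, was also the latest. It had 6.16% in DKO1 and 31.8% in HCT116, next to a blank of 0.56 Mb. In HCT116 it was a small rise within a late stretch, and in DKO1 it did not stand out from that stretch.

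Distal 4q was then examined with a looser limit, because calls there were sparser. With a call required in 80% of each line's cells, 336 of the 338 bins beyond 162000000 could be used, and their mean share was 23.4% in DKO1 and 26.7% in HCT116. On distal 4q 5 of these 336 bins (1.49%) were at least 15 points higher in DKO1 and 67 (19.9%) at least 15 points lower. At that limit 6.96% of all bins in the table were at least 15 points higher and 7.38% at least 15 points lower, and 5.46% and 5.68% lay in such runs. Distal 4q was mostly late in both lines, with 8 late runs in HCT116, the longest being chr4:178640001-183520000 with 13.97% in DKO1 and 9.50% in HCT116. The last 5 bins with enough calls, chr4:190560001-190960000, had 16.8% in DKO1 and 10.4% in HCT116, so the 4q tip was late while the 4p tip was not.

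The HCT116 early peaks within distal 4q had lower shares in DKO1. They were picked for a high HCT116 value, and the lower runs for their difference. A lower DKO1 value is thus built in to an unknown degree, and the values are descriptions. The widest lower run, chr4:186640001-188240000, had 38.1% in DKO1 and 65.1% in HCT116. Within it, chr4:187360001-188000000 was an HCT116 early domain at this limit, with 44.9% in DKO1 and 81.4% in HCT116. The peak chr4:169600001-170800000 was the only one of 4 HCT116 early runs there that also held an early domain in DKO1, with 71.5% in DKO1 and 84.9% in HCT116. Lower region 8, chr4:165840001-166560000, had 42.8% in DKO1 and 68.1% in HCT116, and lower region 9, chr4:173920001-174480000, had 50.4% in DKO1 and 74.8% in HCT116. One run, chr4:182800001-183200000, was higher in DKO1, with 28.3% in DKO1 and 9.27% in HCT116. Beside these values, 85.2 to 94.3% of DKO1 cells and 94.4 to 97.8% of HCT116 cells had a call in the runs examined there. The part of missing calls in the differences was not tested. With cells of at most 1% code 0, 65 in DKO1 and 227 in HCT116, lower region 8 had 36.8% in DKO1 and 76.2% in HCT116.

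Code 0 was more frequent on chromosome 4 than elsewhere, and most of all on distal 4q. It took 4.75% of the chromosome's calls in DKO1 and 2.20% in HCT116, against 2.65% in DKO1 and 0.991% in HCT116 on the other autosomes. Before 162000000 it took 3.14% in DKO1 and 1.71% in HCT116, and beyond it took 12.6% in DKO1 and 4.60% in HCT116. Chromosome 4 ranked 2 of 21 in both lines, behind chromosome 13. The ratio of DKO1 to HCT116 varied along the chromosome. In the first 5 Mb of the chromosome code 0 took 0.993% in DKO1 and 0.418% in HCT116. From 5 to 10 Mb it was more frequent in HCT116, with 1.17% in DKO1 and 1.48% in HCT116, a ratio of 0.794. From 185 to 190 Mb it took 12.6% in DKO1 and 3.39% in HCT116, a ratio of 3.72. Past 190 Mb it took 20.5% in DKO1 and 13.1% in HCT116, a ratio of 1.56, and in the bin before the last it was more frequent in HCT116, with 20.3% of DKO1 cells and 24.8% of HCT116 cells. The last bin of the table had no call in any cell of either line.

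**Figure D4:**
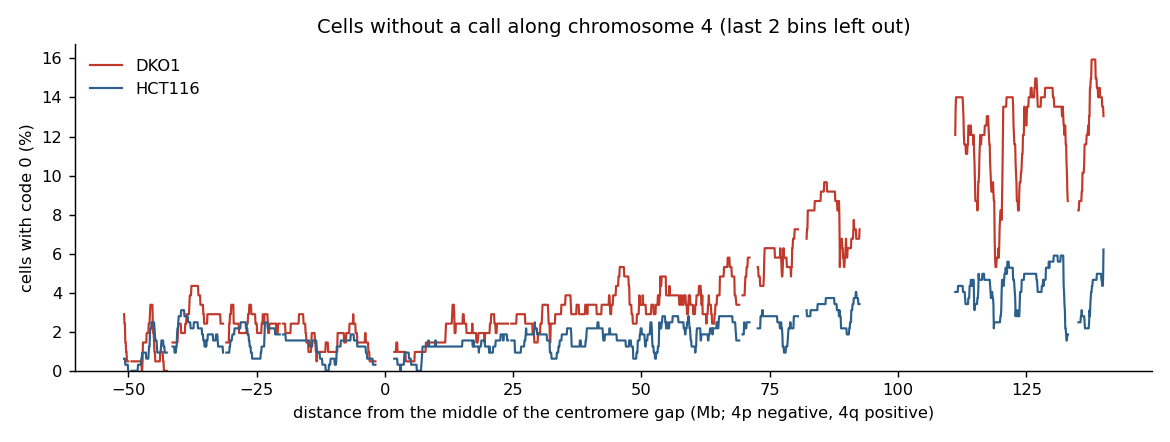
Percent of cells with code 0 in each chromosome 4 bin against distance from the middle of the centromere gap in Mb, in DKO1 and HCT116, without the last 2 bins. Both lines stay under 5% on 4p, and DKO1 climbs along 4q to over 12% in much of its distal portion, with dips at the early peaks.

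Missing calls were also more frequent in late bins. In bins late in HCT116 code 0 took 5.92% in DKO1 and 2.70% in HCT116, and in bins early in HCT116 it took 2.72% in DKO1 and 1.06% in HCT116. Across the 1653 bins used before 162000000, Spearman's rho between code 0 and the line's own share was -0.33 in DKO1 and -0.49 in HCT116. These are neighbouring bins of the same cells, so no p is given.

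Long runs of code 0 that reach the end of 4q were counted per cell. A run had at least 25 bins, which is 2 Mb of bins, and reached the last 5 bins. Such a run was present in 28 of 207 DKO1 cells (13.5%, interval 9.18 to 18.95%), against 14 of 322 HCT116 cells (4.35%, interval 2.40 to 7.19%). No cell of either line had one at the start of 4p. Among the 42 chromosome ends counted, the 4q end ranked first in both lines, and the median over all ends was 1.45% in DKO1 and 0.311% in HCT116. In DKO1 the next end was the start of chromosome 2, with 8.21% of DKO1 cells and 1.86% of HCT116 cells.

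**Figure D5:**
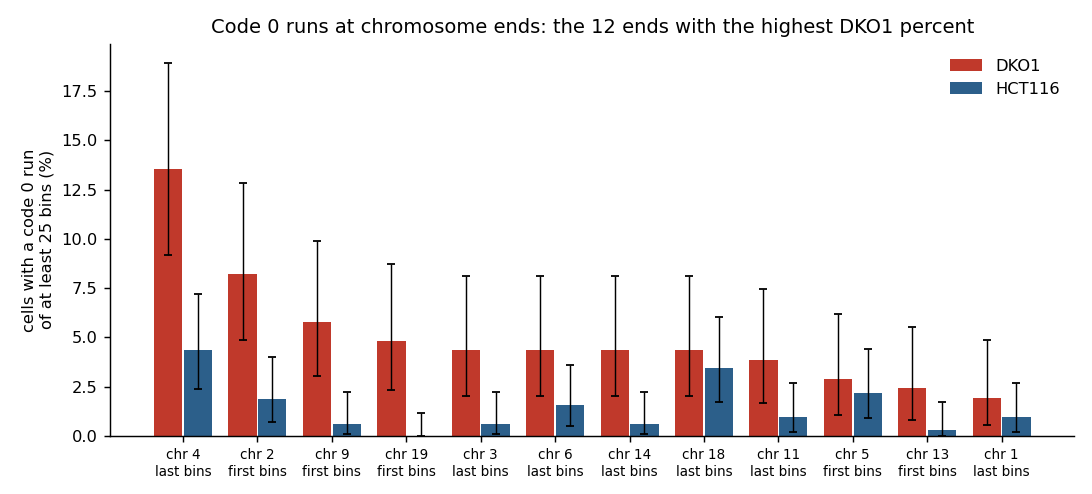
Percent of cells with a code 0 run of at least 25 bins at a chromosome end, for the 12 ends with the highest DKO1 percent, in DKO1 and HCT116, with exact 95% intervals that cover counting error of cells. The end of 4q has the highest bars, at 13.5% in DKO1 and 4.35% in HCT116.

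The runs at the 4q end did not share 1 breakpoint. The 28 DKO1 runs began at 22 different bins and the 14 HCT116 runs at 12, and no bin was the start in more than 2 cells of a line. They held 32 to 1621 bins in DKO1 (median 53) and 29 to 494 bins in HCT116 (median 37). Most began at or after 186000000, just past a blank of 2 Mb: 18 of 28 in DKO1 and 9 of 14 in HCT116. Another 8 in DKO1 and 2 in HCT116 began between the 18.56 Mb blank and that one, and 2 in DKO1 and 3 in HCT116 began before both. The bin just before the run was coded unreplicated in 27 of 28 DKO1 cells and 13 of 14 HCT116 cells, which is also the code of most distal 4q bins.

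Missing calls elsewhere were compared between cells with and without such a run. Another chromosome carried a run of at least 25 bins in 25 of the 28 DKO1 cells with a 4q end run (89.3%) and 136 of the 179 without (76.0%). In HCT116 it did so in 7 of the 14 cells with one (50%) and 134 of the 308 without (43.5%). The median code 0 on the other chromosomes was 2.87% in DKO1 cells with a 4q end run and 1.91% in DKO1 cells without. It was 0.488% in HCT116 cells with one and 0.268% in HCT116 cells without. By rising stratum of progress, 18.2, 14.6, 13.2, 11.8, 15 and 10% of DKO1 cells carried a run, against 6.06, 6.25, 5, 3.85, 2.44 and 0% of HCT116 cells. DKO1 was thus higher in every stratum. A deletion in part of the cells and a failed call cannot be told apart from these codes. Anywhere on chromosome 4, a code 0 run of that length was present in 47 DKO1 cells (22.7%) and 26 HCT116 cells (8.07%). Without those cells the arm differences were 4.73 points on 4p and -3.61 points on 4q.

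Cells of DKO1 were less alike on chromosome 4 than cells of HCT116. For 2 mid-S cells of a line within 5 points of progress of each other, 25.2% of chromosome 4 bins differed in DKO1 (2329 pairs of 104 cells) and 20.2% in HCT116 (4124 pairs of 138 cells). Cells recur in many pairs, so pairs are not independent. On 4p the discordance was 26.6% in DKO1 and 19.2% in HCT116, and on 4q it was 25.01% in DKO1 and 21.6% in HCT116. Over the other autosomes it was 22.9% in DKO1 and 16.9% in HCT116. The ratio of DKO1 to HCT116 was 1.39 on 4p, 1.16 on 4q and 1.35 over the other autosomes, so 4q had the smaller excess.

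By class, discordance was 21.0% in DKO1 and 11.7% in HCT116 in early bins, 40.7% in DKO1 and 35.8% in HCT116 in middle bins, and 12.4% in DKO1 and 8.11% in HCT116 in late bins. Middle bins differed most between cells in both lines, and early bins had the largest ratio, at 1.80. The number of changes of state along the chromosome was a median of 79 per mid-S DKO1 cell (quartiles 67.75 and 88) and 84 per mid-S HCT116 cell (quartiles 77 and 94).

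A few cells departed as a whole from the progress of their other chromosomes. The chromosome 4 share lay over 15 points from the line fitted to both lines together in 10 of 207 DKO1 cells (4.83%, interval 2.34 to 8.70%), against 5 of 322 HCT116 cells (1.55%, interval 0.506 to 3.59%). Of the 10 DKO1 cells 5 carried a 4q end run, and of the 5 HCT116 cells 3 did. Among cells with at most 1% code 0 the percents were 1.54% in DKO1 and 0.441% in HCT116. By arm, 11 DKO1 and 8 HCT116 cells departed on 4p, and 19 DKO1 and 10 HCT116 cells on 4q. Chromosome 4 ranked 8 in DKO1 and 9 in HCT116 among the 21 chromosomes, with chromosome 13 first in both lines.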

How the data were processed

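Single-cell replication sequencing of S-phase DKO1 and HCT116 cells was read from 1 table that the authors deposited. Its values are state codes (0, 1 or 2), one for each 80 kb bin and cell, and the cell names in the file headers give the line. The name of the table calls them binarised output of a hidden Markov model. Tools named in the submitters' processing notes are Cell Ranger, SAMtools 1.10 and bedtools 2.26.0, with hg19 and GRCh37 as builds. Which model software and filters were used is not given in the sources used here. Coordinates are those of the table, counted from 1.

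The table does not define the codes. Code 2 was read as replicated because its share followed gene density across 21 chromosomes (Spearman's rho 0.871 in DKO1 and 0.851 in HCT116, with densities from the GRCh38.p14 gene table). Code 0 was left out as not called. No annotation or genome of the table's build was used, so bins were not assigned to genes, the gene lists of the plan were not run and no sequence is shown. The plan parted the arms at the longest stretch without bins. That stretch proved to lie on 4q, from 143440001 to 162000000, so the next longest, from 49120001 to 52720000, was taken as the centromere.

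Named regions were all runs past 15 points, at most 10 in each direction by summed difference. Named domains were the 5 longest early and late ones of HCT116 and those at the edges. Regions and runs named beyond these rules (the 4p region at 31040001, the runs of distal 4q and the DKO1 domains) were chosen after their values were seen. The members and all rules were chosen with earlier results of these data known. No doublet caller was run, the G1 libraries were not analysed here, and the lines shared 0 cell barcodes. The functions (Python 3.11.15, numpy 2.4.6, pandas 2.3.3, scipy 1.17.1, matplotlib 3.10.9) were tested on simulated data. Alternatives covered the call limit, the strata, the treatment of code 0, the cells kept and the size thresholds.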

Additional observations from a re-analysis of the deposited data

How the results depend on the processing

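No paired analysis was possible because each line is a single S-phase library, and no spread between replicates exists. Of 160 comparisons of a main value with an alternative 137 moved by less than the interval or 1.5 times, 22 moved further and 1 changed sign. For mean shares that interval is the counting error of a single percent of cells, which is wide beside the arm differences. A 4q difference of -9.38 points against -4.53 thus counted as within it. The 137 therefore do not show that the arm differences held. Requiring a call in 99% of each line's cells left 175 bins of chromosome 4, and the 4p difference was then -1.63 points. That setting gave 2 bins in 0 regions higher in DKO1, and 20 bins in 2 regions lower. With a threshold of 10 points there were 236 bins in 18 regions higher and 393 bins in 33 regions lower, and with 20 points 77 bins higher and 105 bins in 9 regions lower. Runs of at least 10 bins gave 5 regions higher and 7 lower, and 9 early domains in DKO1 and 19 in HCT116. Thresholds of 80 and 20% gave 18 early domains in HCT116. Runs of code 0 of at least 50 bins at the 4q end were present in 7.73% of DKO1 cells and 1.86% of HCT116 cells. A limit of 10 points put 11.1% of DKO1 cells and 3.73% of HCT116 cells as outlying, and among cells with at most 1% code 0 it was 1.54% in DKO1 and 0.441% in HCT116. Apart from the thresholds, the cause of these moves was not tested.

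Over 11 alternatives the difference ranged from -1.63 to 5.07 points on 4p, from -9.38 to -3.34 points on 4q and from -4.55 to -0.804 points on the whole chromosome. The 19 named regions kept their direction under every alternative that gave them a value, at 5.05 to 35.6 points in higher regions and -39.3 to -13.9 points in lower ones, and 5 of these 192 values were under 15 points in size. Since the regions were picked for a large difference in the same cells, a kept direction is largely built in. The call limit of 80% left their values unchanged, and that of 99% gave a value only for higher region 7 and lower region 3. Alternatives chosen after seeing the data were the call limit of 80%, strata from 30 to 70%, and leaving out cells with code 0 runs on chromosome 4 or cells outlying on either arm. Call sparsity limits distal 4q most.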

Other observations

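Timing borders, the places where the share crosses 50%, were matched between the lines after the profiles had been seen, so these values are descriptive. Chromosome 4 had 41 such borders in DKO1 and 44 in HCT116, and 36 pairs of the same orientation lay within 1 Mb of each other. On 4q 25 borders were paired. The early side was shorter in DKO1 at 18 of them, longer at 3 and in the same bin at 4, with a median shift of -160 kb and a range of -720 to 240 kb. On 4p 11 borders were paired. The early side was longer in DKO1 at 5, shorter at 2 and in the same bin at 4, with a median of 0 and a range of -80 to 400 kb. Most borders of 4q thus stood closer to the early peak in DKO1 than in HCT116, while those of 4p lay within a few bins of their HCT116 position.

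The late stretch of proximal 4q that is the longest late domain in both lines, chr4:59840001-68080000, had 7.54% in DKO1 and 4.98% in HCT116, and its highest bin reached 27.2% in DKO1 and 28.5% in HCT116. It held none of the 25 regions that differed by 15 points.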
